A study of Mus musculus with 6 samples.

Results

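Eph receptors and ephrins were examined in iKAP mouse colorectal tumour cells. The members were 10 genes: the receptors Epha2, Epha4, Ephb2, Ephb3 and Ephb4, and the ligands Efna1, Efna4, Efna5, Efnb1 and Efnb2. Every probe set whose platform annotation named a member was taken, which gave 20 of 45101 probe sets and covered 9 of the 10 genes. Ephb2 was named by none, so its expression is not analysed here, and only its promoter window enters the motif search. Each of the 20 probe sets named a single gene. The study compared 3 arrays of cells labelled as carrying the IRF2 open reading frame with 3 arrays of cells labelled GFP control. Both constructs were lentiviral and stably expressed, and all 6 arrays came from the primary culture numbered 3346. iKAP is known as an engineered mouse model of colon cancer, and both groups would share its alleles. The labels do not list the alleles, the number of clones or whether the 3 arrays of a group were separate cultures. The p-values therefore reflect array-to-array spread alone, and this may be technical.

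Eph receptors form the largest family of receptor tyrosine kinases, and their ligands, the ephrins, are themselves bound to the membrane. A-type ephrins hang on a lipid anchor and mostly bind EphA receptors, whereas B-type ephrins span the membrane and mostly bind EphB receptors. Contact between cells can signal into both, forward through the receptor and in reverse through the ligand, and often ends in repulsion or sorting of cells. In the intestinal crypt, EphB2 and EphB3 are known targets of beta-catenin and TCF, and with B-type ephrins they keep cells at their place along the crypt axis.

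Of the 9 measured members, Epha4 and Efnb2 rose and Efna1 and Epha2 fell on the arrays labelled IRF2, each by less than 1.4-fold, while Ephb3, Ephb4, Efna4, Efna5 and Efnb1 had no probe set past the test. The stretch upstream of a RefSeq start (GRCm38.p6) of each of the 4 genes that moved is shown on the strand of the gene, 5′ to 3′. Each is 250 bases long except that of Epha4, which is 231 bases because the last bases of its window lie inside the annotated gene. They lie at chr1:77515108-77515338 (Epha4, minus strand), chr8:8661243-8661492 (Efnb2, minus strand), chr3:89280952-89281201 (Efna1, minus strand) and chr4:141300971-141301220 (Epha2, plus strand). Capitals mark a match to 1 of the motifs searched. Efna1 has another RefSeq start, whose window is not shown and held no such match.
Epha4: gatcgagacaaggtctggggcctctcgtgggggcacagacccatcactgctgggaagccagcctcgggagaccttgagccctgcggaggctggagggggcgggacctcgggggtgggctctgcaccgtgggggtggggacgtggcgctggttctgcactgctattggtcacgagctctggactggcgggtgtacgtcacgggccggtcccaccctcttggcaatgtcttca
Efnb2: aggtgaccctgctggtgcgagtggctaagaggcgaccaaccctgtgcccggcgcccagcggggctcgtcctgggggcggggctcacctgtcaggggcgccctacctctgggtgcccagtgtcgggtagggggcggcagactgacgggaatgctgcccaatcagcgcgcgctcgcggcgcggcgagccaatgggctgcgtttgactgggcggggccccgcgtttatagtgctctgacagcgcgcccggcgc
Efna1: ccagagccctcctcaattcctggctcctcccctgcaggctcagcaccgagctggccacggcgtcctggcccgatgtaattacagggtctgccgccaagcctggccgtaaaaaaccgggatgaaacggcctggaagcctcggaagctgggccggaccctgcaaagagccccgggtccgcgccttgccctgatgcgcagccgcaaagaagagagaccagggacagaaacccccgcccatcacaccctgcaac
Epha2: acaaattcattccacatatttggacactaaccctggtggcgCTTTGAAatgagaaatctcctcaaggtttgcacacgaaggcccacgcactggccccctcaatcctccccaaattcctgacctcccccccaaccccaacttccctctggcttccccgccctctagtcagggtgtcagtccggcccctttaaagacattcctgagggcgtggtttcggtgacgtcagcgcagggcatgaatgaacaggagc

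Short motifs were searched on both strands of the 250 bases before each start, allowing overlaps. The core that interferon regulatory factors bind, a pair of GAAA repeats 2 bases apart, was in 0 of the 11 windows of the 10 members and in 2.98% of 32851 RefSeq windows of the same length. The STAT element TTCNNNGAA was in 0 of the 11 and in 7.02% of all windows. The TCF cores CTTTGAT and CTTTGAA were in 1 of the 11, the Epha2 window, and in 7.48% of all windows. A match describes the letters of the window and is not a shown site, and these windows leave out enhancers and most of each gene. The Efnb2 window was 72% G and C and the Epha2 window 55.6%.

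The arrays were checked first. The probe set of Irf2 averaged 62.6 ± 2.53 in the GFP control group and only 36.3 ± 0.934 in the group labelled IRF2 (SD, 3 arrays each), which goes against the label. The sources used here do not say whether this probe set can see the transgene, so the group is called "labelled IRF2" throughout. The medians of the 6 arrays lay between 18.2 and 18.7 intensity units. The transferrin receptor probe sets at the 3′ and 5′ ends gave a ratio, a sign of RNA quality, that ran from 3.61 to 3.78 in the control group and from 3.81 to 4.47 in the other. The same ratio for actin overlapped, at 1.001 to 1.017 in the control group and 0.996 to 1.023 in the other. Their part in the results was not tested. Among 12 epithelial markers, the keratin genes Krt8, Krt18 and Krt19 were bright and Cdx2 and Cdh17 lay above the intensity filter, whereas the differentiation markers Vil1, Krt20 and Cdx1 lay under it. The filter was the 40th percentile of all probe sets that are not controls, an intensity of 11.3, and a probe set under it has a level but no test. The arrays measure bulk RNA, so fewer cells of a type and less RNA per cell cannot be told apart.

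Of the 20 member probe sets, 19 lay above the filter and 1, an Epha4 probe set whose control mean was 3.97 ± 0.0945 (SD, n = 3), did not. Of the 19, limma called 5 higher and 3 lower at an adjusted p under 0.05, or 42.1%. Over all 27022 probe sets tested, 13.0% were called higher, 15.7% lower and 28.7% in either direction. Counted by gene, each standing by its brightest probe set, 2 of 9 members were higher and 2 lower, against 34.2% called in either direction over 12795 genes, and the members came to 44.4%. With 9 genes, that is 4 members called, and all the called probe sets belong to these 4. The members were chosen with earlier results of these data known, so these shares are no independent test of the family. The changes were small: 12 of the 19 probe sets differed by less than 0.2 on the log2 scale, as did 80.4% of all tested probe sets. The median log2 fold change over the 19 was 0.06, beside -0.0011 over all probe sets tested. In 9 of the 19 member probe sets the groups held no overlapping values, against 40.5% of all tested. The arrays labelled IRF2 lay above in 6 of them (19.2% of all tested) and below in 3 (21.3%). The plot of log2 fold changes by probe set shows each change with its interval.

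**Figure D1:**
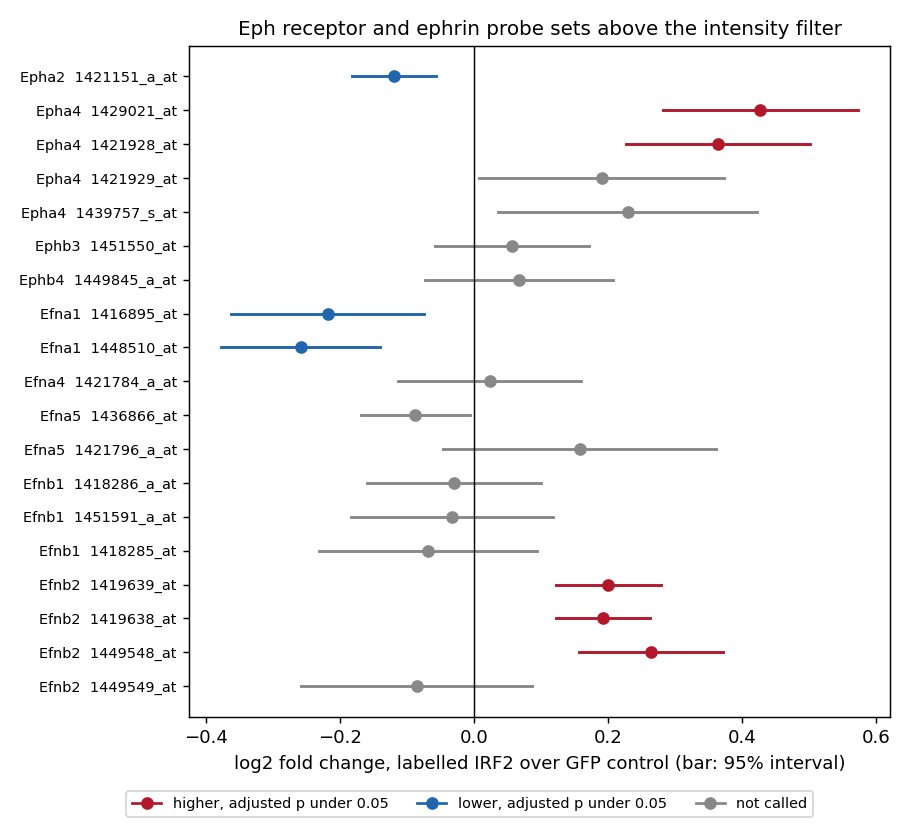
Log2 fold change, labelled IRF2 over GFP control, of the 19 member probe sets above the intensity filter, each with its 95% interval from limma (3 arrays a group). Red marks the 5 called higher, all of Epha4 and Efnb2; blue marks the 3 called lower, of Epha2 and Efna1; grey marks the 11 not called.

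Of the 4 member receptors measured, Epha4 moved most. EphA4 is known for binding both A-type and B-type ephrins, ephrin-B2 among them. Its brightest probe set, 1429021_at, read 41.6, 43.7 and 44.3 on the GFP control arrays and 54.5, 58.0 and 62.0 on the arrays labelled IRF2. Every array labelled IRF2 stood above every control, and the log2 fold change was 0.43 (SE 0.07, limma adjusted p = 3.01e-04), or 1.34-fold. A second Epha4 probe set, 1421928_at, read 38.8, 40.7 and 38.1 against 51.1, 49.6 and 50.6. These groups did not overlap either, and the log2 fold change was 0.36 (SE 0.06, adjusted p = 6.48e-04).

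The remaining Epha4 probe sets above the filter pointed the same way but did not pass. 1439757_s_at read 20.7, 18.7 and 19.3 against 25.5, 21.2 and 22.1, with no overlap (0.23, SE 0.09, adjusted p = 0.0748). 1421929_at read 29.0, 33.0 and 33.7 against 33.4, 39.1 and 36.5, with overlapping groups (0.19, SE 0.08, adjusted p = 0.119). The brightest and the dimmest tested probe set of Epha4 differed in their change by 0.20, which an exact permutation test over the 6 arrays did not separate (two-sided p = 0.3, where 0.1 is the smallest this design allows). The mean of all 5 Epha4 probe sets, the one under the filter included, gave 0.25 (adjusted p = 0.00309).

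Epha2, a receptor for A-type ephrins that is abundant in many epithelial tumours, has 1 probe set. It read 716, 734 and 748 on the GFP control arrays and 682, 652 and 689 on the arrays labelled IRF2. The groups did not overlap, but the change was small: the mean fell by 7.97% (log2 fold change -0.12, SE 0.03, adjusted p = 0.00677). This call was lost without the intensity trend in the test (adjusted p = 0.0714; the other alternatives gave 0.00369 to 0.044).

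The EphB receptors did not pass. Ephb3, which helps to sort cells in the crypt, read 94.1, 85.9 and 87.6 against 93.8, 89.8 and 94.3 (log2 fold change 0.06, 95% interval -0.06 to 0.17, adjusted p = 0.503). Ephb4, the main receptor of ephrin-B2 and best known from veins, read 71.1, 62.4 and 67.3 against 67.4, 74.2 and 68.6 (0.07, 95% interval -0.07 to 0.21, adjusted p = 0.512). In both genes the groups overlapped, and both intervals leave out a change as large as that of the brightest Epha4 probe set.

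**Figure D2:**
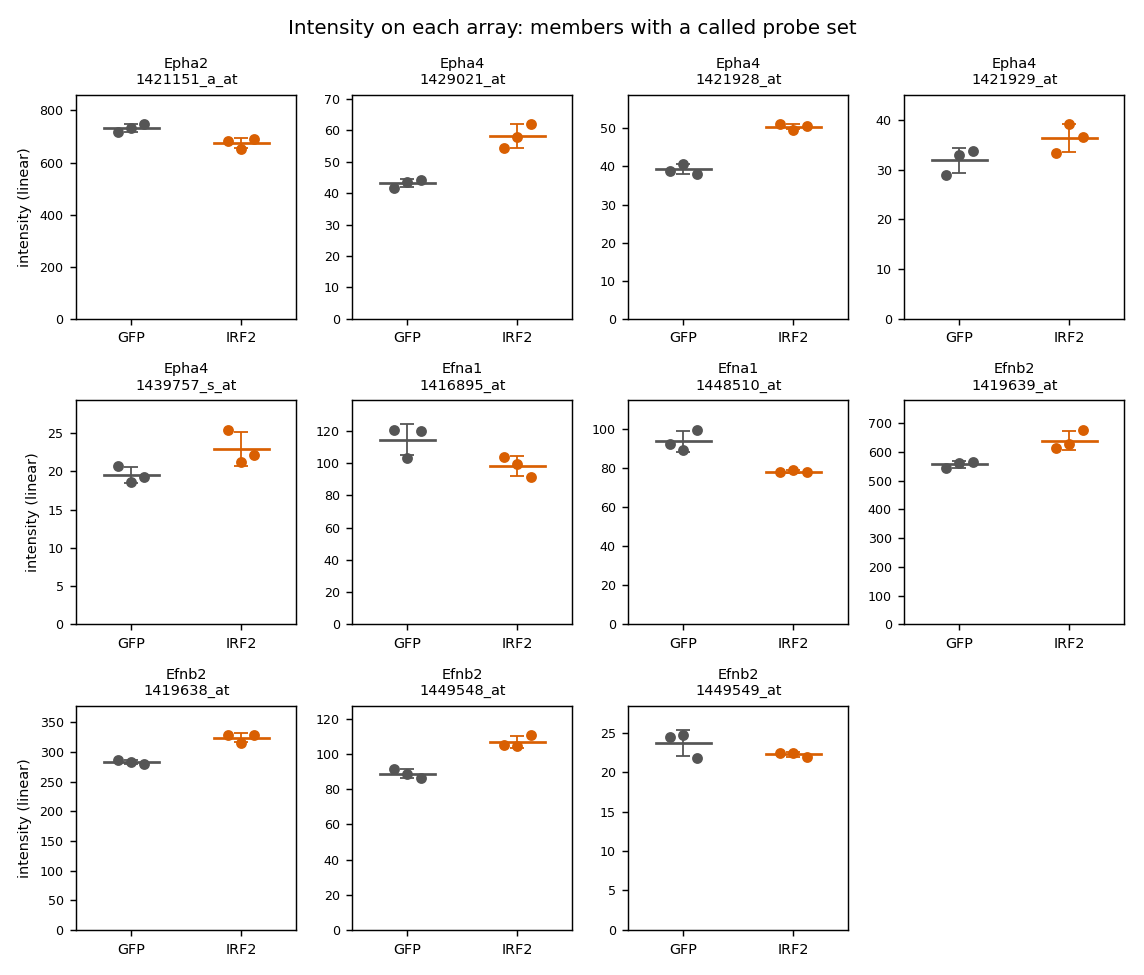
Linear intensity on each array for the tested probe sets of Epha2, Epha4, Efna1 and Efnb2; points are arrays, lines the group means and bars the SD (n = 3 each), and every axis starts at 0. The groups stand apart in 3 probe sets of Epha4 (2 called, and 1439757_s_at), 3 of Efnb2, 1 of Efna1 and that of Epha2; they overlap in Epha4 1421929_at, Efna1 1416895_at and Efnb2 1449549_at.

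Among the ligands, Efnb2 was higher and Efna1 lower. Ephrin-B2 marks arteries and is also made by the epithelium of the gut. Its brightest probe set, 1419639_at, read 542, 562 and 565 on the GFP control arrays and 612, 629 and 678 on the arrays labelled IRF2 (log2 fold change 0.20, SE 0.04, adjusted p = 8.65e-04). 1419638_at read 286, 284 and 280.25 against 328, 315 and 328 (0.19, SE 0.03, adjusted p = 5.04e-04). 1449548_at read 91.6, 88.6 and 86.5 against 104.9, 104.4 and 110.8 (0.26, SE 0.05, adjusted p = 0.00119).

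In these 3 Efnb2 probe sets no control array reached any array labelled IRF2. The fourth, 1449549_at, was dim and pointed the other way: it read 24.5, 24.7 and 21.8 against 22.4, 22.5 and 21.9, with overlapping groups (-0.09, SE 0.08, adjusted p = 0.489). The brightest Efnb2 probe set exceeded it by 0.29 in its change (exact permutation p = 0.1, the smallest possible; adjusted p = 0.25 over 5 such comparisons, 1 for each gene with several tested probe sets). The sources used here do not say which part of the transcript each probe set reads.

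Because ephrin-B2 and EphB4 are also vessel genes, endothelial markers were set beside them. Of 12 markers, 5 (Pecam1, Tek, Tie1, Emcn and Vwf) lay under the filter on the mean and read between 4.42 and 6.52, no higher than the bacterial tryptophan controls reached (3.69 to 6.52). Of the 7 tested, 0 rose and 2, Flt1 and Egfl7, fell, beside 15.6% and 18.6% of all genes by brightest probe set. Summed over the 12, intensity ran from 348 to 355 in the control group and from 286 to 293 in the group labelled IRF2. Most of that drop was Flt1 alone, which went from 181 ± 2.89 to 128 ± 5.42 (SD, n = 3 each). The 5 not called were Cdh5, Kdr and Esam (0.14, 0.09 and 0.04 on the log2 scale) and Erg and Cldn5 (-0.08 and -0.09). The part of these marker changes in the Efnb2 values was not tested.

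Ephrin-A1, the favoured ligand of EphA2, was lower by both of its probe sets. 1448510_at read 92.0, 89.2 and 99.6 on the GFP control arrays and 77.8, 78.9 and 77.7 on the arrays labelled IRF2, with no overlap (log2 fold change -0.26, SE 0.05, adjusted p = 0.00266). The brighter 1416895_at read 121, 103 and 119.9 against 104.1, 99.8 and 91.7 (-0.22, SE 0.07, adjusted p = 0.0248). Here 1 control array lay just under the highest array labelled IRF2. The call of 1416895_at was lost without the intensity trend (adjusted p = 0.0902) and without the GFP control array of replicate 1 (0.0898) or 3 (0.108) or the array labelled IRF2 of replicate 2 (0.054) or 3 (0.106). The lowest adjusted p of any alternative was 0.00319. That of 1448510_at held under all 13 alternatives that tested it. The changes of the 2 probe sets differed by 0.04 (exact permutation p = 0.7, where 0.1 is the smallest possible). With so few arrays this does not show that they are alike.

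Efna4 and Efna5, also A-type ligands, did not pass. Efna4 read 64.7, 57.5 and 64.7 against 61.8, 64.3 and 63.6 (log2 fold change 0.02, 95% interval -0.11 to 0.16, adjusted p = 0.835), and its sign turned without the GFP control array of replicate 2. The bright Efna5 probe set, 1436866_at, read 251, 234 and 250.3 against 232, 228 and 231. Every array labelled IRF2 was below every control, yet the change of -0.09 (SE 0.04, adjusted p = 0.103) did not pass. Without the GFP control array of replicate 2 it did (-0.12, adjusted p = 0.0298; range over all alternatives 0.0298 to 0.687). The dim Efna5 probe set, 1421796_a_at, read 18.2, 15.6 and 18.2 against 19.1, 21.1 and 17.9 and had the opposite sign (0.16, SE 0.09, adjusted p = 0.257). The 2 Efna5 probe sets differed in their change by -0.25 (exact permutation p = 0.1, the smallest possible; 0.25 adjusted).

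Efnb1, the other B-type ligand measured and known for its part in the sorting of crypt cells, did not pass in any of its 3 probe sets. The brightest, 1418286_a_at, read 72.4, 75.7 and 71.2 against 70.8, 67.7 and 76.4 (log2 fold change -0.03, 95% interval -0.16 to 0.10). The other two gave -0.03 and -0.07, with adjusted p of 0.781 and 0.565. All 3 had overlapping groups.

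**Figure D3:**
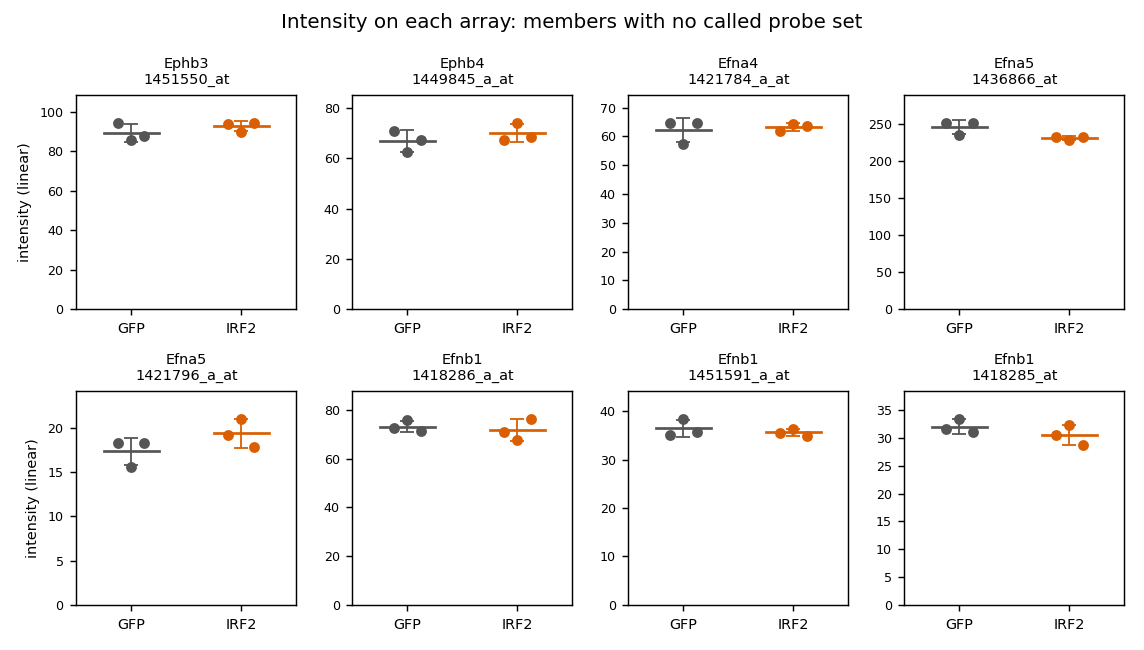
Linear intensity on each array for the tested probe sets of Ephb3, Ephb4, Efna4, Efna5 and Efnb1; points are arrays, lines the group means and bars the SD (n = 3 each), and every axis starts at 0. The groups overlap in all panels but that of Efna5 1436866_at, where the arrays labelled IRF2 (228 to 232) lie just below the controls (234 to 251).

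The other 12 genes of the family had 25 probe sets, of which 10 lay above the filter. Of these 10, limma called 2 higher and 1 lower, beside 13.0% and 15.7% of all probe sets tested. Ephb6, a receptor whose kinase domain is inactive, changed more than any member. It read 60.6, 57.4 and 72.4 on the GFP control arrays and 95.5, 96.1 and 90.6 on the arrays labelled IRF2. The groups stood well apart, with a log2 fold change of 0.57 (SE 0.08, adjusted p = 7.08e-05), or 1.49-fold. One Epha7 probe set, 1427528_a_at, rose by 0.29 (SE 0.09, adjusted p = 0.0229), but the brighter 1443485_at gave -0.01 (SE 0.08, adjusted p = 0.932) and 1451991_at 0.10 (SE 0.07, adjusted p = 0.348). Leaving out any 1 of 4 arrays ended the Epha7 call (GFP control replicates 2 and 3, labelled IRF2 replicates 1 and 2, 1 at a time), with adjusted p from 0.0584 to 0.0933 (range over all alternatives 0.0109 to 0.0933).

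The dimmer Efna2 probe sets disagreed: 1444606_at fell by 0.27 (SE 0.09, adjusted p = 0.0424) and 1417521_at gave 0.12 (SE 0.11, adjusted p = 0.460). The Efna2 call was lost with no filter (adjusted p = 0.0699), without the intensity trend (0.0522), and without the GFP control array of replicate 3 (0.177) or the array labelled IRF2 of replicate 1 (0.134) or 2 (0.13). Its adjusted p ran from 0.0259 to 0.177. Epha8, Epha10 and Efnb3, each with 1 probe set, gave 0.15 (SE 0.09), 0.09 (SE 0.09) and -0.10 (SE 0.09), with adjusted p of 0.277, 0.518 and 0.477. Epha1, Epha3, Epha5, Epha6 and Ephb1 had no probe set above the filter. In 11 of the 15 family probe sets under it, no array read above the highest tryptophan control.

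**Figure D4:**
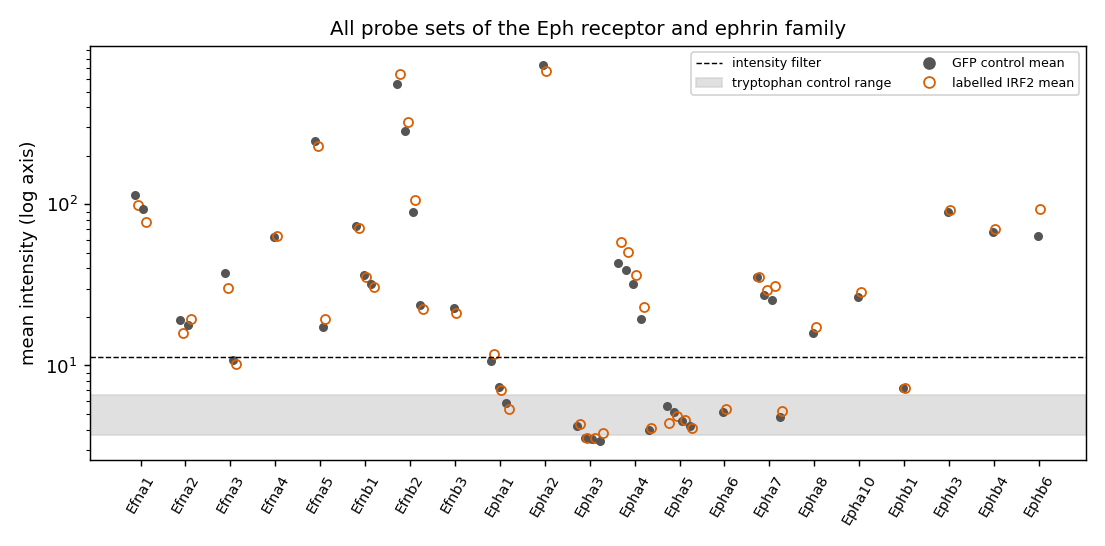
Mean intensity (log axis) of every probe set of the Eph and ephrin family, members and other family genes, on the GFP control arrays (filled) and the arrays labelled IRF2 (open), 3 arrays each. The dashed line is the filter at 11.3 and the grey band the tryptophan control range; all probe sets of Epha3, Epha5 and Epha6 lie near or in the band, and levels of different probe sets are not comparable.

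Efna1, Efna3 and Efna4 are consecutive protein-coding genes on mouse chromosome 3 in the RefSeq annotation, between Slc50a1 and Adam15. The Efna3 probe set above the filter read 33.4, 44.9 and 33.6 on the GFP control arrays and 31.3, 29.6 and 30.0 on the arrays labelled IRF2. The groups did not overlap, but the control array of replicate 2 stood high, and the change of -0.29 (SE 0.10) missed the threshold at an adjusted p of 0.0525. It passed under quantile normalization (0.0444), robust moderation (0.0465), the replicate block (0.0345), with genes tested by their brightest probe set (0.0353), and without the GFP control array of replicate 1 (0.0256) or 3 (0.0396). Its adjusted p ran from 0.0256 to 0.215. Efna4, also inside the run, did not pass (0.02). On the outer sides, Slc50a1, a sugar transporter gene, rose by 0.33 (SE 0.04, adjusted p = 1.73e-05). The 4 probe sets of Adam15, a membrane protease, lay between -0.04 and 0.11 with adjusted p from 0.150 to 0.745.

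By the rule for likeness, the 3 genes whose 6 log2 values, centred on the control mean, lay closest to those of Epha4 1429021_at were Plat, Ror1 and Arhgap18, with mean absolute differences of 0.01, 0.02 and 0.03. Plat encodes tissue plasminogen activator, Ror1 a receptor tyrosine kinase-like receptor for Wnt ligands, and Arhgap18 a GTPase-activating protein. Their log2 fold changes were 0.46 (SE 0.04), 0.44 (SE 0.05) and 0.43 (SE 0.06). The rule picks genes by closeness, so changes near that of Epha4 follow from the choice and show no link between the genes. In the mean of their probe sets, Plat came to 0.28 and Ror1 to 0.26.

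Genes that carry the Eph signal inside the cell were next. Of 40 adaptors, exchange factors and kinases of forward signalling, 33 were tested; 3 rose and 12 fell, and the median change was -0.03 (-0.0007 over all genes tested). By brightest probe set, 15.6% of all genes rose and 18.6% fell. Chn2, which encodes beta-chimaerin, a GTPase-activating protein for Rac, fell from 163, 159.98 and 169.8 to 98.8, 100.5 and 99.7 (-0.72, SE 0.04, adjusted p = 4.59e-08). Tiam1, a Rac exchange factor that EphA2 and ephrin-B1 can recruit, fell from 147, 146 and 149 to 99.5, 98.1 and 87.0 (-0.64, SE 0.05, adjusted p = 1.23e-06; -0.24 in the mean of its probe sets). In both genes the groups were far apart. The kinase gene Abl2 fell by 0.24 (SE 0.03) and the GTPase gene Rac1 by 0.14 (SE 0.02). Rac1 went from 3423 ± 14.5 to 3113 ± 50.1 (SD, n = 3 each). The 3 that rose were Abl1 (0.24, SE 0.04), Vav2 (0.23, SE 0.07) and Nck2 (0.17, SE 0.04). Chn1 gave 0.01 (SE 0.06) and was not called.

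Of 13 genes of ephrin-B reverse signalling and its PDZ partners, 11 were tested. Of these, 1 rose and 3 fell (median -0.0066), beside 15.6% and 18.6% of all genes. The scaffold gene Dlg1 rose by 0.18 (SE 0.02). Sdcbp, which encodes syntenin, a PDZ protein that binds the tail of B-type ephrins, fell by 0.13 (SE 0.02). The polarity genes Pard6b and Pard6a fell by 0.40 (SE 0.08) and 0.24 (SE 0.05), and Pard6b came to -0.26 with 16 added before the log.

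Of 19 genes of Eph and ephrin cleavage, dephosphorylation and turnover, 16 were tested. Of these, 5 rose and 2 fell (median 0.08), beside 15.6% and 18.6% of all genes. Mmp14, a membrane metalloprotease that can cut EphA2, rose by 0.17 (SE 0.03, from 387 ± 3.76 to 437 ± 6.36), and the gamma-secretase subunit gene Psenen by 0.13 (SE 0.02). The receptor phosphatase gene Ptprf fell by 0.33 (SE 0.06) and the chaperone gene Hsp90aa1 by 0.10 (SE 0.02). Hsp90aa1 no longer passed without the intensity trend (adjusted p = 0.0771; range over all alternatives 3.13e-04 to 0.0771). The count of rises was 3 without the intensity trend and 2 without the array labelled IRF2 of replicate 2.

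Semaphorins, plexins and neuropilins are another family of guidance ligands and receptors. Of 31, 25 were tested, of which 10 rose and 5 fell, with a median of 0.15. The shares over all genes were 15.6% and 18.6%. The receptor gene Plxna2 rose by 0.51 (SE 0.06), Sema4f by 0.42 (SE 0.03) and the co-receptor gene Nrp2 by 0.25 (SE 0.03), while Sema3b fell by 0.43 (SE 0.05). In the mean of their probe sets Nrp2 came to 0.04 and lost its call (adjusted p = 0.322; range over all alternatives 7.32e-06 to 0.322), and Sema3b came to -0.24. The count of rises in this family was 6 in the mean of probe sets and 6 without the array labelled IRF2 of replicate 1. No test compared this family with the Eph family.

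Since Ephb2 and Ephb3 are crypt targets of beta-catenin, other such targets were counted. Of 19, 16 were tested, of which 7 rose, with Dkk1 counted, and 1 fell (median 0.08), beside 15.6% and 18.6% of all genes. Rnf43, which encodes a ligase that removes Wnt receptors, rose by 0.40 (SE 0.04), and the cyclin gene Ccnd1 by 0.18 (SE 0.02, from 2099 ± 55.6 to 2380 ± 24.1). Wif1, a secreted Wnt antagonist, rose by 0.90 (SE 0.06). Dkk1, another, was also called higher, but it passed the filter only through the arrays labelled IRF2: its mean was 10.8 ± 1.18 in the control group, under the filter, and 30.7 ± 0.979 in the other (SD, n = 3 each). Its fitted change of 1.51 (SE 0.09) came to 0.80 with 16 added before the log. Myc was the 1 that fell (-0.14, SE 0.03). The 8 not called ran from -0.19 (Lgr5) to 0.21 (Sp5), with Axin2 at 0.04 (SE 0.03). The value of Ephb3 was 0.06 (SE 0.05). Whether it differs from these genes was not tested.

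**Figure D5:**
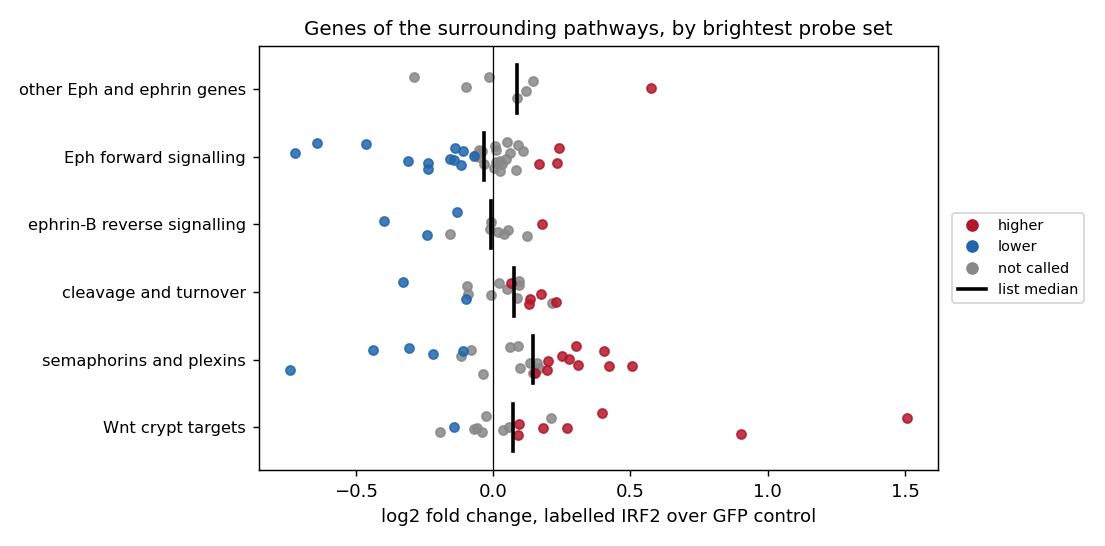
Log2 fold change, labelled IRF2 over GFP control, of each tested gene of the 6 lists around the family, by its brightest probe set; the vertical bar is the list median and colour the limma call. Vertical scatter within a list has no meaning. Ephb6 is the red point of the first list (0.57), and Chn2 and Tiam1 are the lowest points of the second (-0.72 and -0.64).

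Markers of other cell types moved in both directions, and their part in the changes above was not tested. Over all genes by brightest probe set, 15.6% rose and 18.6% fell. Of 12 epithelial markers, 9 were tested, of which 2 rose and 3 fell, and their summed intensity ran from 14636 to 14781 in the control group and from 16122 to 16258 in the other. Nearly all of that higher sum was Krt8, which went from 3533 ± 32.7 to 4999 ± 114 (SD, n = 3 each). The median change of the 9 was -0.12, and Cdh1, Cdh17 and Epcam, which hold epithelial cells together, fell by 0.75, 0.57 and 0.81 on the log2 scale. Of 10 fibroblast markers, 6 were tested, with 2 higher and 1 lower (sum 237 to 241 against 259 to 276). Pdgfra and Acta2 were higher and Pdgfrb lower, while Col1a1, Lum, Thy1 and Fap lay under the filter. Of 8 neuronal markers, 5 were tested, with 2 lower (sum 315 to 338 against 230.0 to 252). These 2 were Tubb3 (156 ± 11.2 to 88.0 ± 4.95) and Stmn2 (61.9 ± 3.82 to 41.0 ± 3.60). Syt1, Rbfox3 and Map2 were not called. Of 8 immune markers, 7 had a probe set and 4 were tested and limma called 0 of them, 1 with an unadjusted p under 0.05 (sum 254 to 288 against 281 to 294), and Ptprc, the marker of all leukocytes, lay under the filter.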

How the data were processed

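Total RNA of 6 samples was measured on Affymetrix 3' arrays. The authors' deposited values are linear probe set intensities; per the submitters' processing notes MAS5 was among the tools, but its role and version are not stated. An exactly equal value on 2 or more arrays occurs in 4124 of 45101 probe sets (9.14%), and the sources used here do not name the step that made these ties. No further scaling was applied.

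Gene symbols came from the platform annotation that GEO holds: of 45037 that are not controls, 34945 had 1 gene symbol, 932 several and 9160 none there. The linear model of limma 3.58.1 (R 4.3.3), with eBayes and an intensity trend, was run on log2 intensity with group as the only term, over the 27022 probe sets above the 40th percentile of mean log2 value. Tests were two-sided and Benjamini-Hochberg adjusted over that whole set, with a threshold of 0.05. A change is the log2 fold change, labelled IRF2 over GFP control. A gene in a list stands by its brightest probe set. The fit was also run on data simulated with independent noise, which cannot address effects shared by the arrays of a group. Precision is limited by the number of arrays.

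The members, lists and the rule for named genes were chosen with earlier results of these data known. The rule took every family probe set, up to 4 genes with the smallest p in each other list, and the 3 genes most like the member that changed most. Same-numbered arrays did not deviate together: the correlations of their deviations from the group means were 0.06, -0.06 and 0.0031. Alternatives were other filters, 16 added before the log, quantile normalization, no trend, robust moderation, gene-level tests, a replicate block and leaving out each array.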

Additional observations from a re-analysis of the deposited data

How the results depend on the processing

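Under 15 alternatives, 15 of the 19 tested member probe sets kept their direction, and 13 also their side of the threshold, wherever they were tested. The number of member probe sets called higher was 5 under each of the 13 alternatives run on probe sets; the other two test genes. Those called lower were 3, but 1 without the intensity trend and 2 to 4 when 1 array was left out; by brightest probe set the members called lower were 2, but 0 without the trend and 1 to 3 when 1 array was left out. When 1 array was left out, the change ran from -0.034 to 0.052 for Efna4, from -0.077 to 0.0098 for Efnb1 1418286_a_at, from -0.058 to 0.0066 for Efnb1 1451591_a_at and from -0.084 to 0.058 for Epha7 1443485_at. In the mean of probe sets of a gene, the sign turned for Efna5 (0.035), Epha7 (0.12) and Efna2 (-0.075), each set against its brightest probe set. The replicate block gave 3529 probe sets higher and 4244 lower, against 3513 and 4246 without it, and changed no call of a member; the arrays share only a number. The 3 arrays a group limit what dim probe sets can show.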
